A study of Mus musculus with 4 samples.

Results

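Integrins hold a macrophage to its matrix, and a short chain of cytoplasmic proteins turns that hold into a signal. Talin and kindlin bind the tail of the β-subunit and switch the integrin on, vinculin, paxillin and integrin-linked kinase tie the activated receptor to actin, and focal adhesion kinase, its close relative Pyk2 and Src carry the tyrosine kinase signal inward. In leukocytes the kindlin of this chain is kindlin-3, whose loss leaves cells unable to arrest on vessel walls. The α5β1 integrin, the classical fibronectin receptor, is the pair of receptor subunits at the head of the chain.

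The transcripts of 10 genes of this chain were counted in single cells of mouse hearts: the receptor subunits Itga5 and Itgb1, the activators Tln1 (talin-1) and Fermt3 (kindlin-3), the linkers Vcl (vinculin), Ilk (integrin-linked kinase) and Pxn (paxillin), and the tyrosine kinases Ptk2 (focal adhesion kinase), Ptk2b (Pyk2) and Src. They were taken by symbol, and all 10 were found among the 31053 genes of the count matrices. The cells came from CSF1R-EGFP mice aged 12 to 16 weeks, in which the macrophage colony-stimulating factor receptor promoter drives a green reporter in macrophages, monocytes and related myeloid cells. EGFP+ cells negative for the neutrophil marker Ly6G were sorted after digestion of the hearts. The baseline library pooled cells of 3 hearts without surgery. Each of the 3 infarct libraries held cells of 1 heart taken 7 days after ligation of the left coronary artery. All animals carried the reporter. With no sham-operated library, the infarct cannot be told apart from the surgery itself or from the pooling of hearts. The baseline pool is 1 library, and no comparison with it has a replicate check.

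The 4 libraries held 10144 to 10804 cells and between 71093963 and 97944428 UMIs (unique molecular identifiers, each standing for 1 captured transcript). After the filters, 41533 cells remained, with a median of 6399 UMIs per cell at baseline and 8470 to 8557 in the infarcts. Any pair of libraries shared 26 to 34 cell barcodes. A level below is given in CPM, the counts-per-million unit, over the UMIs of the summed cells with mitochondrial genes left out, and intervals on a single library are exact 95% Poisson intervals that cover counting error only. Reads were counted at the 3′ end and not divided by length, so levels are compared between samples or cells and not between genes, except where stated. Cells were sorted into 18 gates by lists of marker genes and by whether the C1q genes, which mark mature macrophages, were high or low. The names of gates rest on those markers alone, and none of the 10 genes is a gate marker. In every named gate, each marker on its list had a log2 ratio over 1 against the other cells. Cells entered a gate by these same markers, so those ratios are no check of the names. Of the 14 myeloid gates, 13 held at least 20 cells in every infarct library and were compared.

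Of the receptor pair, the α5 subunit was higher and the β1 subunit lower after infarction. Itga5 (GRCm38 chr15:103344286-103366763, minus strand) was listed at 27.3 CPM at baseline, with an interval from 26.1 to 28.6, and at 49.9, 43.7 and 43.6 in infarcts 1, 2 and 3. Every infarct library lay above the baseline interval, and the infarct mean of 45.7 ± 3.57 (SD, n = 3) gave a log2 ratio of 0.75. Its partner Itgb1 (chr8:128685654-128733200, plus strand), the β-subunit shared by most fibronectin, collagen and laminin receptors, was at 524 at baseline and at 370, 336 and 416 in the infarcts, a log2 ratio of -0.49. The integrin-activating protein talin showed the same order of groups, and the actin linker vinculin showed it with a larger ratio. Tln1 (chr4:43531519-43562691, minus strand) was at 777 at baseline and at 469, 398 and 499 in the infarcts (log2 ratio -0.77), and Vcl (chr14:20929398-21033676, plus strand) was at 43.0 and then 22.1, 13.4 and 17.3 (log2 ratio -1.29).

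The other adaptors were close to their baseline level. Fermt3 (chr19:6998958-7019469, minus strand) was at 163 at baseline and at 176, 160.0 and 176 in the infarcts. Ilk (chr7:105736592-105742925, plus strand) was at 86.6 and then 79.9, 79.1 and 80.8, and Pxn (chr5:115506676-115555987, plus strand) at 67.1 and then 65.8, 49.1 and 53.0. These log2 ratios were 0.07, -0.12 and -0.26, and the 3 Fermt3 values fell on both sides of the baseline.

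The kinases split by gene. Ptk2b (chr14:66153257-66281052, minus strand) was nearly level, at 86.9 at baseline and 79.3, 79.5 and 80.1 in the infarcts. Ptk2 (chr15:73205102-73423280, minus strand) was at 13.6 at baseline and at 3.71, 1.61 and 3.69 in the infarcts, a log2 ratio of -2.18, and Src (chr2:157418444-157471862, plus strand) was at 1.67 and then 3.69, 5.37 and 2.82, a log2 ratio of 1.24. Both were counted at low levels, and infarct 2 had the lowest Ptk2 and the highest Src.

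**Figure D1:**
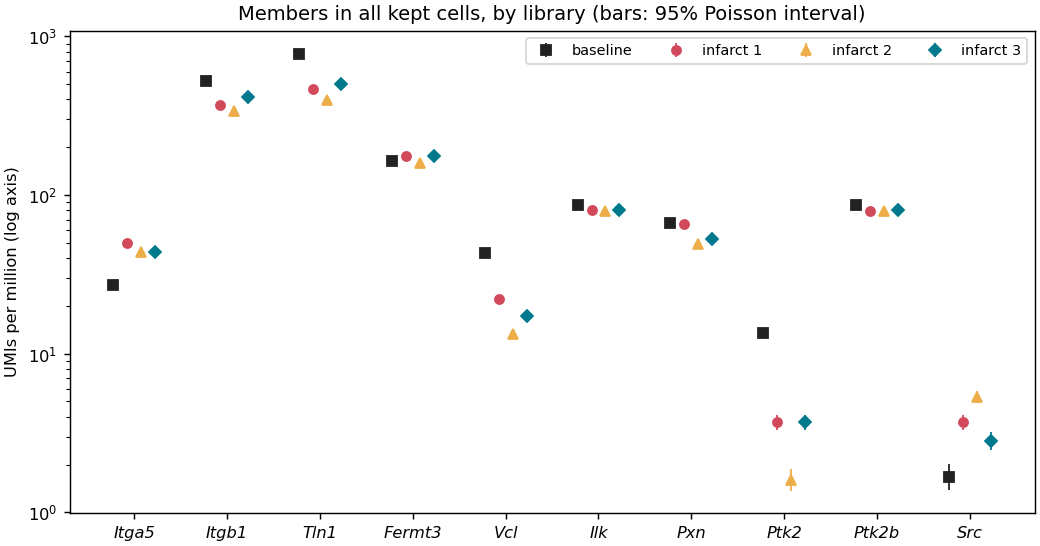
CPM of each gene in all kept cells (log axis), with 1 point per library and exact 95% Poisson intervals as bars. Itga5 and Src sit higher in all 3 infarct libraries than at baseline. Itgb1, Tln1, Vcl and Ptk2 sit lower in all 3, as do Ptk2b, Ilk and Pxn with smaller ratios.

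With 1 baseline library there was no test. Genes needed a mean of at least 10 CPM over the 4 libraries, baseline included. A gene was then counted as different when every infarct library lay at least 1.5 times to the same side of the baseline. Of the 10 genes, 8 passed the level filter and Ptk2 and Src did not. Itga5 alone was past the fold upwards, where 4.02% of all 7708 genes were, and Tln1 and Vcl were past it downwards, where 14.7% of genes were. The median log2 ratio of all genes was -0.17. Scaling by trimmed means (TMM) moved that median to 0.11, and with it Itga5 had a log2 ratio of 1.03, Vcl of -1.01, Ptk2 of -1.90, Itgb1 of -0.20 and Tln1 of -0.49, so that Tln1 was no longer past the fold. The small ratios of Ptk2b, Ilk and Pxn turned positive under it, at 0.16, 0.17 and 0.02. Genes of the tissue dissociation and stress list moved beside the chain: 5 of 10 (Jun, Egr1, Hspa1a, Hspa1b and Dnajb1) were past the fold downwards and none upwards, and Hspa1a went from 385 at baseline to 87.0 ± 59.8 (SD, n = 3). Their part in these ratios was not tested.

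The makeup of the sorted cells differed between the groups, since 36.4% of baseline cells and 3.12% to 6.55% of infarct cells fell in the resident macrophage-like gate. The same comparison was therefore made inside each of the 9 gates with at least 100 cells in every library. Of the 90 pairs of gene and gate, 73 passed the level filter. In 16 pairs every infarct library was above baseline, against 29.6% of all pairs of gene and gate, and in 41 every one was below, against 47.0%.

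Itga5 was above baseline in all 3 infarct libraries in 8 of the 9 gates. In the cycling, resident, unnamed C1q-high and unnamed C1q-low gates, every infarct library also lay above the baseline's Poisson interval. In non-classical, classical, interferon-response and transitional cells, not every infarct library did. In resident macrophage-like cells, which carry Lyve1, Folr2 and Timd4, Itga5 was at 24.3 at baseline and at 42.8, 37.3 and 37.3 in the infarcts. The summed level of 8 fibroblast markers in that gate was 11.0 at baseline and 39.4 to 61.2 in the infarcts, and that of 8 endothelial markers 44.0 and 30.9 to 40.8, and their part was not tested. In C1q-low cells without another name it was at 29.4 and then 58.0, 54.1 and 55.5. These were the only gates in which Itga5 was past 1.5-fold in every infarct library. The exception to the direction was the type 2 dendritic-like gate, where 25.0 at baseline lay inside the infarct range of 19.8 to 35.1. Tln1 was lower in all 3 infarct libraries in 9 of 9 gates, with log2 ratios from -0.44 in C1q-low cells to -0.73 in transitional cells, which have both Ly6c2 and high C1q. Itgb1, Vcl and Ptk2 were each lower in all 3 libraries in 8 of 9 gates. Of these gates, Ptk2 passed the level filter in the resident macrophage-like one alone. In transitional cells, for example, it rested on 4 baseline and 7 infarct UMIs. The Vcl ratio was furthest from no change in the unnamed C1q-low cells, at 85.3 at baseline against 26.8 ± 2.40 (SD, n = 3), followed by interferon-response macrophage-like cells, at 30.4 against 10.6 ± 3.54, and classical monocyte-like cells, at 83.5 against 32.0 ± 9.86. The summed level of 8 endothelial markers was also lower in the infarcts, at 22.9 to 67.7 against 181 at baseline in the C1q-low cells and at 31.4 to 37.1 against 78.4 in the classical monocyte-like cells. The C1q-low cells held a median of 2390 UMIs at baseline and 7744 to 8429 in the infarcts, and the part of either in the Vcl values was not tested. Ptk2 in resident macrophage-like cells was at 21.1 at baseline and at 10.3, 3.75 and 14.7 in the infarcts. This log2 ratio was -1.14, against -2.18 over all cells, and not every infarct library was past 1.5-fold. The gate carried 63.1% of the baseline Ptk2 UMIs, and the part of cell makeup in the difference over all cells was not tested.

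The other adaptors and kinases had no such common order inside the gates. Fermt3 was above baseline in all 3 infarct libraries in 4 gates and below in none, and its largest ratio was in resident macrophage-like cells, at 159 against 195 ± 25.6 (SD, n = 3). Ilk was above in 3 gates and below in 4, all with log2 ratios between -0.24 and 0.13, and Pxn was below in 5 and above in none. Ptk2b was below in 6 gates and above in 1, with the largest differences in transitional cells (111 against 67.0 ± 7.96) and in non-classical monocyte-like cells (229 against 153 ± 16.6). In resident macrophage-like cells Ptk2b was at 54.6 against 55.9 ± 7.47, where the baseline value lay inside the infarct range while that of Ptk2 lay above it. Src was above in 4 gates and below in 2, from few UMIs.

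**Figure D2:**
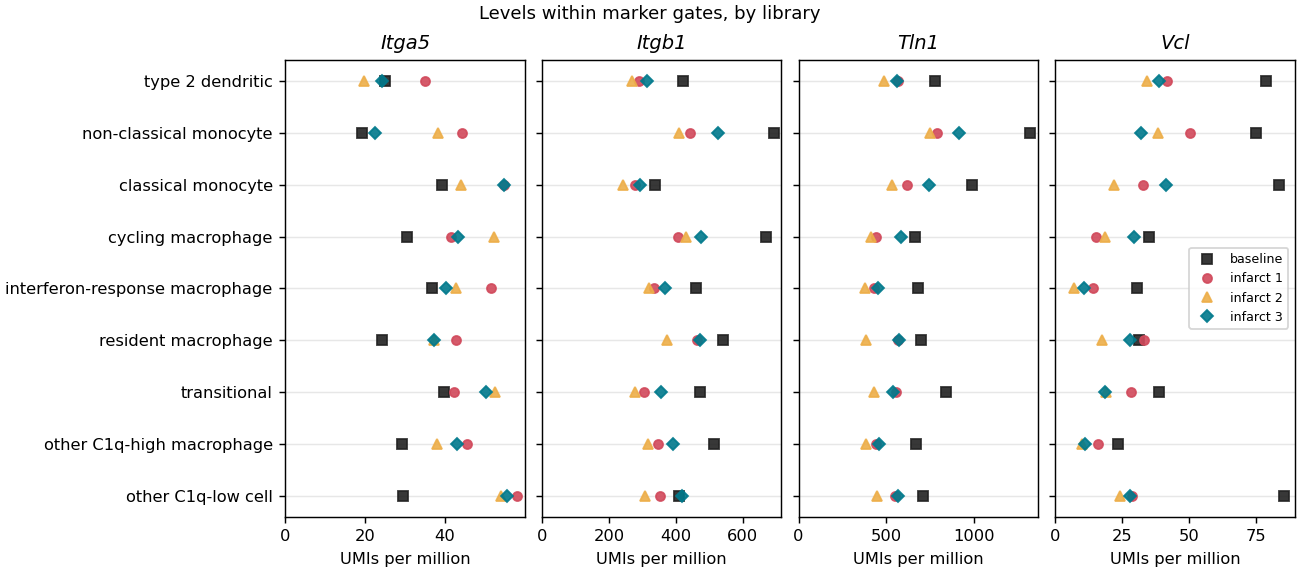
CPM of Itga5, Itgb1, Tln1 and Vcl (1 panel each, axes from 0) in the 9 gates with at least 100 cells in every library, with 1 marker per library. The black baseline square lies left of the 3 infarct points in 8 of 9 rows for Itga5 and right of them in 9 of 9 rows for Tln1.

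A promoter of Vcl was read because vinculin, a known target of serum response factor, had the largest ratio of the genes that passed the level filter. The 250 bases before the annotated start in RefSeq (GRCm38.p6, chr14:20929148-20929397, plus strand) are shown 5′ to 3′ with the CArG box, the element that this factor binds, in capitals, 227 to 218 bases before the start.
Vcl promoter: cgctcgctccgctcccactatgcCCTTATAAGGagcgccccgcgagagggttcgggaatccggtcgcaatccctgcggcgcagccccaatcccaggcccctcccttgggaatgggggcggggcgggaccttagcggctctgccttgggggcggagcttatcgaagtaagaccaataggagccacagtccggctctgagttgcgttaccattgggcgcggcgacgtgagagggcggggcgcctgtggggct
Windows of 300 bases were matched for 7 of the 10 genes, and 1 of their 8 windows held a CArG box on either strand. The share was 1.63% in 32851 RefSeq promoter windows. The 1 window was that of Vcl, a known target read for this factor, so the count cannot show an excess among the genes. The AP-1 letters TGANTCA were in none of the 8, against 7.81% of all windows, and no match says only that these letters are not in the window.

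To ask which myeloid cells of the infarct carried each gene, the cells of a gate were summed within each infarct library and compared with all other myeloid cells of the same library by edgeR's quasi-likelihood test with the library as a block. Adjusted p-values are Benjamini-Hochberg values over all genes tested in a gate, and a call needs one under 0.01. The 13 comparisons share cells, since each gate is part of the comparator of the others. All 130 pairs of gene and gate were tested and 48 were called, 22 higher and 26 lower in the gate. No call changed direction under the 13 alternatives tried, and 10 of the 48 were kept under every one of them that could be run. A fit without the library block ended 28 of the 48 calls, and thinning every cell to 2000 UMIs before gating ended 24 of the 43 that it could test.

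**Figure D3:**
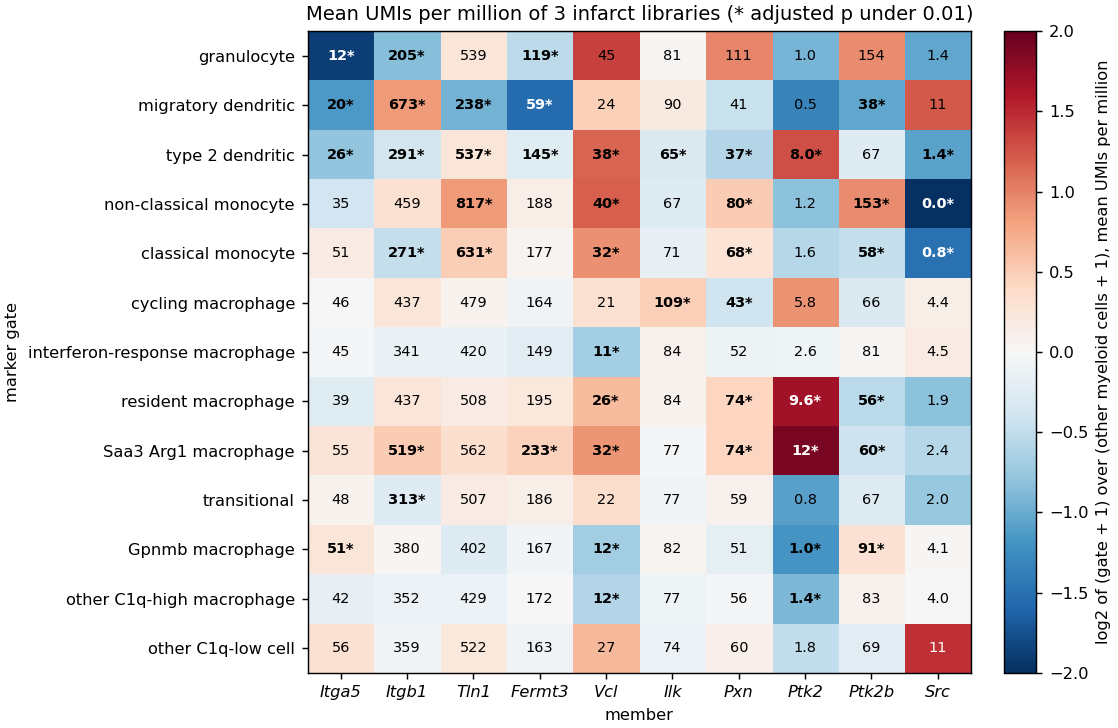
Mean CPM of each gene (columns) in 13 gates (rows) over the 3 infarct libraries, coloured by the log2 of gate over other myeloid cells, each mean plus 1. Asterisks mark adjusted p under 0.01, and the strongest reds lie under Ptk2 in the resident and Saa3 Arg1 rows.

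Itga5 was not the mark of a single gate. It was highest on average in the unnamed C1q-low cells at 55.9 ± 2.01 (SD, n = 3), which did not pass the test against other myeloid cells (adjusted p = 0.0903 in edgeR's quasi-likelihood test with Benjamini-Hochberg adjustment, for a log2 fold change of 0.28 ± 0.09 SE). The gate that passed was the Gpnmb macrophage-like one, the most numerous named gate of the infarct, defined by Gpnmb, Spp1, Trem2 and Gdf15. There Itga5 was at 59.6, 47.6 and 47.1 against 43.2 ± 2.55 in the other myeloid cells, a log2 fold change of 0.32 ± 0.05 with adjusted p = 0.00212. Without infarct 3 the fold change was 0.35 with an edgeR adjusted p of 0.012, which did not pass. In this gate 4 of the 10 genes were called, where 23.8% of all genes were. Itga5 was lower in type 2 dendritic-like cells (35.1, 19.8 and 24.2), in migratory dendritic-like cells (27.6, 17.3 and 15.7) and in granulocyte-like cells (18.2, 0 and 16.9, from 10 UMIs in all). Its log2 fold changes there were -0.81, -1.004 and -2.002, and the migratory call was lost when any of the 3 infarct libraries was left out, at adjusted p of 0.011, 0.035 and 0.019.

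Itgb1 had its highest level in migratory dendritic-like cells, which carry Ccr7 and Fscn1 and leave tissue for lymph nodes. It was at 560.1, 705 and 754 there against 371 ± 40.2 in other myeloid cells (log2 fold change 0.94 ± 0.13, edgeR adjusted p = 8.74e-12). In all, 5 of the 10 genes were called in that gate, where 21.9% of all genes were, and the other 4 were lower. It was also higher in Saa3 Arg1 macrophage-like cells, at 522, 494 and 540 against 367 ± 38.5, though that call was lost without infarct 1 or infarct 3. Itgb1 was lower in granulocyte-like cells (log2 fold change -1.17), classical monocyte-like cells (-0.43), type 2 dendritic-like cells (-0.38) and transitional cells (-0.23), of which the last was lost without any 1 library. Granulocyte-like cells thus had the lowest level of both subunits, and migratory dendritic-like cells had high Itgb1 with low Itga5.

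Talin was highest in the monocyte-like gates of the infarct. Tln1 was at 789, 750 and 913 in non-classical monocyte-like cells, the patrolling monocytes marked by Ace and Treml4, against 452 ± 51.9 in other myeloid cells. The log2 fold change of 0.80 ± 0.10 had an edgeR adjusted p of 3.57e-15. In classical monocyte-like cells, marked by Ly6c2, it was at 618, 534 and 741 (log2 fold change 0.52 ± 0.07), and both calls were kept under every alternative. A small value in type 2 dendritic-like cells (0.22) was lost without infarct 1 or 2. Tln1 was lowest in migratory dendritic-like cells, at 213, 265 and 235 (log2 fold change -0.85). Its paralogue Tln2 contributed little: Tln1 made up 97.9% of the talin UMIs at baseline and 99.5% ± 0.0307 (SD, n = 3) in the infarcts. Tln2 was at 9.59 ± 2.50 in resident macrophage-like cells against 1.46 ± 0.394 elsewhere, a log2 fold change of 2.62 with edgeR adjusted p = 6.4e-06.

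Kindlin-3 was the kindlin of these cells, with 97.6% of kindlin UMIs at baseline and 99.1% ± 0.0878 in the infarcts, and no Fermt1 UMI was counted in the 41533 cells. Fermt3 was lowest in migratory dendritic-like cells, at 70.6, 46.0 and 58.9 against 172 ± 9.60 in other myeloid cells (log2 fold change -1.43 ± 0.19, edgeR adjusted p = 6.46e-13). It was highest in Saa3 Arg1 macrophage-like cells, at 213, 256 and 231 (log2 fold change 0.39), a call lost without infarct 1 or infarct 3. Lower levels in granulocyte-like cells (log2 fold change -0.79, lost without infarct 2 or 3) and in type 2 dendritic-like cells (-0.27, lost without any 1 library) were less stable. Tln1 and Fermt3, the pair that activates integrins, were thus both low in migratory dendritic-like cells, where their receptor subunit Itgb1 was high.

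Vinculin varied more between gates than its neighbours in the chain, with 5 gates higher and 3 lower. It was at 50.2, 38.3 and 32.0 in non-classical monocyte-like cells against 16.9 ± 4.15 elsewhere (log2 fold change 1.19), at 41.6, 34.2 and 38.6 in type 2 dendritic-like cells (1.18), and at 32.8, 21.8 and 41.4 in classical monocyte-like cells (0.95). Among C1q-high cells it was higher in Saa3 Arg1 (0.77) and resident (0.61) macrophage-like cells and lower in Gpnmb (-0.64) and interferon-response (-0.64) macrophage-like cells and in the unnamed C1q-high cells (-0.59). When every cell was thinned to 2000 UMIs before gating, the log2 fold change was 0.04 in the non-classical gate and 0.64 in the type 2 dendritic gate, and neither passed. The resident call was lost without infarct 3, at a log2 fold change of 0.55. Against C1q-high cells alone the Gpnmb value was -0.38 and the unnamed C1q-high value -0.35, of which the Gpnmb value did not pass.

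Ilk and Pxn had the smallest fold ranges of the chain between gates, though Pxn ranged 2.97-fold and was called higher in 4 gates and lower in 2. Ilk ranged 1.68-fold from the lowest to the highest gate and was higher in cycling macrophage-like cells, at 114, 106 and 107 against 78.5 ± 0.949 (log2 fold change 0.42, edgeR adjusted p = 0.000905). That call was lost when cells were thinned before gating (log2 fold change 0.29, edgeR adjusted p = 0.396). Its lower level in type 2 dendritic-like cells (-0.32) was lost without any 1 library. Pxn was highest in granulocyte-like cells, at 111 ± 31.5, where it did not pass (log2 fold change 0.73, edgeR adjusted p = 0.0186). Pxn was lower in type 2 dendritic-like cells, at 39.8, 36.2 and 35.9 against 56.7 ± 9.33 (log2 fold change -0.63), and was lost there without infarct 1. Its other calls were small, and each was lost when some library was left out, though the fold change kept its direction. They were log2 fold changes of 0.47 in non-classical and 0.32 in classical monocyte-like cells, 0.38 in resident and in Saa3 Arg1 macrophage-like cells and -0.45 in cycling macrophage-like cells. The cycling call was lost without infarct 2, the resident and Saa3 Arg1 calls without infarct 1 or 3, the non-classical call without infarct 2 or 3, and the classical call without any 1 library.

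The kinases drew the clearest contrast between gates. Focal adhesion kinase was low nearly everywhere in the infarct and stood out in C1q-high cells of the resident and Saa3 Arg1 kinds. Ptk2 was at 12.3, 9.98 and 13.2 in Saa3 Arg1 macrophage-like cells, from 71, 7 and 49 UMIs, against 2.44 ± 0.916 in other myeloid cells (log2 fold change 2.16 ± 0.25, edgeR adjusted p = 7.86e-08), kept under every alternative. In resident macrophage-like cells the log2 fold change was 1.99 ± 0.21 with edgeR adjusted p = 2.25e-05. In Gpnmb macrophage-like cells it was at 1.09, 0.846 and 1.19, from 88 UMIs (log2 fold change -1.66), and this fold change was -0.58 and did not pass when cells were thinned before gating. The unnamed C1q-high cells were also lower (-1.27). The call in type 2 dendritic-like cells (1.61) was lost without infarct 1 (1.68) and when thinned (0.62). Endothelial-like cells, whose share of a sort for macrophages is small, had 95.1 ± 5.25 CPM of Ptk2 in the infarcts, from 27 UMIs. The summed level of 8 endothelial markers was 30.9 to 40.8 in resident, 15.7 to 84.6 in Saa3 Arg1 and 83.7 to 210 in non-classical gates of the infarct libraries, and Ptk2 in that last gate was 1.18 ± 0.106. The part of endothelial RNA in these levels was not tested.

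Pyk2, the form of the kinase that predominates in blood cells, had another order. Ptk2b was at 134, 158 and 165 in non-classical monocyte-like cells against 78.9 ± 0.130 elsewhere (log2 fold change 0.89 ± 0.12, edgeR adjusted p = 9.47e-12), kept under every alternative. It was higher in Gpnmb macrophage-like cells too, at 96.3, 88.0 and 89.0 against 74.4 ± 1.13 (log2 fold change 0.37, adjusted p = 0.000608 in edgeR). That value was 0.22 and did not pass when cells were thinned before gating. It was lower in the gates where Ptk2 was high: at 55.4, 63.5 and 48.6 in resident (log2 fold change -0.62, lost without infarct 3) and at 71.6, 51.3 and 57.6 in Saa3 Arg1 macrophage-like cells (-0.43, lost without infarct 2 or 3). Classical monocyte-like (-0.46, lost without infarct 2) and migratory dendritic-like cells (-0.87, lost without infarct 2 or 3) were also lower. Ptk2 and Ptk2b therefore had opposite signs in the resident, Saa3 Arg1 and Gpnmb gates.

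The share of Ptk2 in the UMIs of both kinases summarises that contrast, as a ratio of 3′ counts that need not equal a ratio of molecules. Over all cells it was 13.5% at baseline (exact 95% binomial interval 12.7% to 14.3%) and 4.47%, 1.98% and 4.41% in the infarcts. In resident macrophage-like cells it was 27.9% at baseline and 14.8% ± 8.84 (SD, n = 3) in the infarcts, where single libraries ranged from 5.58% to 23.2%. In the infarcts it was 16.5% ± 2.04 in Saa3 Arg1 macrophage-like cells, 1.13% ± 0.186 in Gpnmb macrophage-like cells and 0.775% ± 0.124 in non-classical monocyte-like cells. The Gpnmb range of 0.951% to 1.32% and the Saa3 Arg1 range of 14.6% to 18.7% did not overlap.

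**Figure D4:**
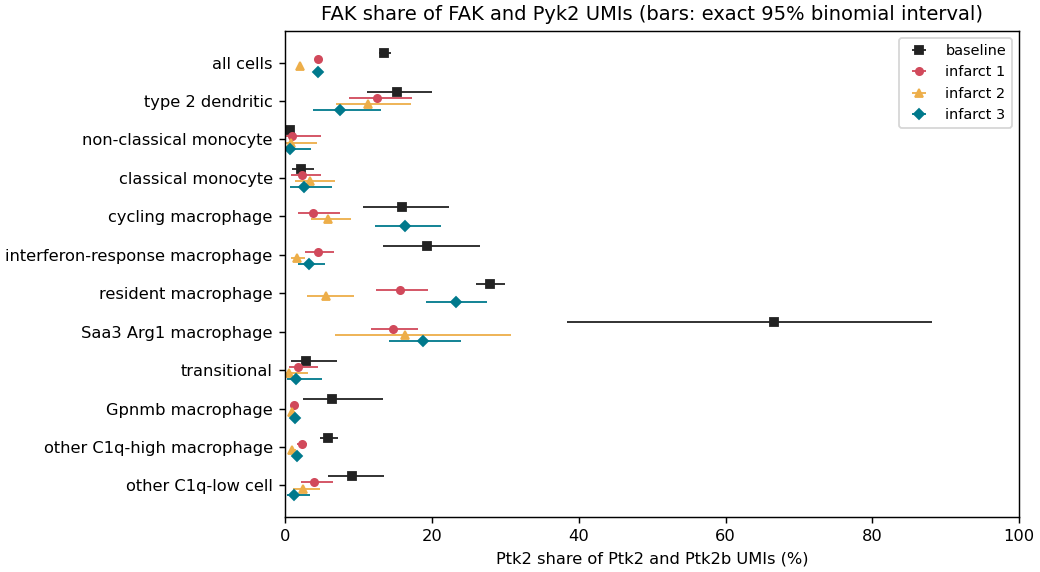
Share of Ptk2 in the UMIs of Ptk2 and Ptk2b (percent) over all cells and by gate, with 1 marker per library and exact 95% binomial intervals as bars. The infarct points of the resident and Saa3 Arg1 rows lie to the right of those of the Gpnmb and non-classical monocyte rows, and the baseline square lies right of the infarct points over all cells.

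Src itself was scarce. It was at 3.41, 26.5 and 4.47 in the unnamed C1q-low cells of infarcts 1, 2 and 3, and did not pass there (log2 fold change 1.34 ± 0.49, edgeR adjusted p = 0.119). The value of infarct 2 came from few cells. A search of this gate alone, made after these values were seen, looked for cells with at least 3 of 6 osteoclast markers (Ctsk, Acp5, Atp6v0d2, Mmp9, Oscar and Slc9b2). It found 61 cells in infarct 2, 3 and 3 in the other infarct libraries and 2 at baseline. Other gates were not searched. Src, which osteoclasts need to resorb bone, was at 86.4 (95% Poisson interval 71.9 to 103) in the 61 cells of infarct 2. In the rest of the gate in that library it was at 3.49. With these cells of the gate left out, the levels of Src over all remaining cells were 3.65, 4.11 and 2.72 in the infarcts and 1.67 at baseline. Infarct 2 moved from 5.37 to 4.11 and all 3 infarct libraries stayed above baseline. Any cells of other gates with these markers were still included. Src had no UMI in non-classical monocyte-like cells of the infarcts, at least 3.40-fold lower than the 3.99 ± 1.28 of other myeloid cells when 3 counts over the group are taken as the floor. That call was lost without infarct 2 or infarct 3. It was also lower in classical monocyte-like cells, from 10 UMIs (log2 fold change -2.20, lost without infarct 3), and in type 2 dendritic-like cells, from 11 (-1.47, lost without any 1 library).

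By gate, the called genes numbered 9 of 10 in type 2 dendritic-like cells, where 34.1% of all genes were called, and 6 of 10 in classical monocyte-like (26.2%) and in Saa3 Arg1 macrophage-like cells (17.7%). They numbered 5 in non-classical monocyte-like cells (20.2%), 4 in resident macrophage-like cells (13.2%) and 3 in granulocyte-like cells (11.9%). Cycling macrophage-like (23.9%) and unnamed C1q-high cells (29.7%) had 2 each, transitional (10.6%) and interferon-response cells (13.1%) had 1 each, and the unnamed C1q-low cells had none (2.92%). In that last gate 4 of the 10 genes had an unadjusted p under 0.05 in edgeR's test, as did 28.3% of all genes, and DESeq2's Wald test called 1, Vcl.

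The wider pathway was read from 8 lists with 84 genes, among them paralogues, integrin activation, the ILK complex, scaffolds and substrates, Src family kinases with their regulators, actin linkers and PI3K with its effectors. Non-classical monocyte-like cells had the most of them higher, 31 of 79 tested with 8 lower, where 9.29% of all genes were higher and 10.9% lower. In the list of Src family kinases and regulators 11 of 13 rose there and none fell, among them Fgr, a myeloid Src kinase, at 327 ± 8.81 against 68.9 ± 19.3 and Fyn at 125 ± 7.97 against 33.0 ± 6.55. The median log2 fold change of the Src family list was 0.77 and that of all genes -0.12. The Rap1 switches that feed talin stood at the top: Rasgrp2, the exchange factor, had a log2 fold change of 2.78, and Rap1gap2, its opponent, one of 2.52. In these cells Src was not counted while its relatives were high.

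The Saa3 Arg1 gate had 19 of 80 higher and 7 lower, beside 9.69% and 7.97% of all genes, among the higher Rasgrp2 at 66.3 against 23.1 (log2 fold change 1.44) and among the lower Actn1, the α-actinin of adhesions, at 14.2 against 27.1 (-0.88). Gpnmb macrophage-like cells had 5 higher and 17 lower, beside 9.80% and 14.0% of all genes, with the scaffold Cass4 (-1.35) and Tln2 (-1.13) among the lower and Actn1 among the higher (0.67). In the same cells 6 of 10 angiogenic mediators and growth factors, a list chosen with earlier results of these data known and so no independent evidence of direction, were higher and 2 lower. Migratory dendritic-like cells had 13 higher and 23 lower, beside 10.3% and 11.7% of all genes. Actn1 was at 251 ± 92.1 against 25.6 ± 2.26 (log2 fold change 3.35), while the ILK partners Parvb (-3.08) and Parvg (-2.57) fell.

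Of the same lists between infarct and baseline, with no test, 5 of 15 scaffold and substrate genes past the filter were at least 1.5 times lower in every infarct library (Cass4, Nedd9, Dock1, Nck1 and Git2) and 1 was higher, the paxillin relative Lpxn, at 61.5 against 30.1. Actn1 was higher (27.8 ± 2.20 against 8.64) and Tns1, a tensin, was lower (10.4 ± 2.11 against 75.7). The PI3K adaptor Pik3r5 was higher and the catalytic subunit Pik3cg lower.

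To ask whether cells with transcripts of a receptor subunit differed in the rest of the chain, infarct myeloid cells were thinned to 2000 UMIs each and split by whether they held a UMI of Itga5, then of Itgb1. The Itga5 split gave 882, 714 and 702 cells with a UMI and the Itgb1 split 4643, 4619 and 4723. At that depth a transcript can be missed in a cell that carries it, so the split does not separate expressing from other cells. The sums were compared as for the gates, over 11549 and 11405 genes.

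No other gene of the chain was called by Itga5 in edgeR's test, where 2.68% of genes were, and 2 had an unadjusted p under 0.05, as did 13.8% of all genes. DESeq2's Wald test called 0. Itgb1 came closest, at 432, 351 and 480.0 in cells with Itga5 and 370, 335 and 415 in cells without, and every library had more of it with Itga5. Its log2 fold change of 0.14 ± 0.04 (edgeR adjusted p = 0.048) was positive in all 18 alternatives and passed in 4 of them. Ptk2b was at 92.5 ± 2.60 (SD, n = 3) with Itga5 and 80.6 ± 1.85 without, also higher in 3 of 3 libraries, with a log2 fold change of 0.17 ± 0.08 that did not pass (edgeR adjusted p = 0.31). The other values were 0.08 for Tln1, 0.01 for Fermt3, 0.30 for Vcl, 0.10 for Ilk, -0.16 for Pxn, 0.11 for Ptk2 and 0.42 for Src, and none passed.

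Cells with Itgb1 had more Tln1, at 479, 414 and 522 against 444, 379 and 457 in cells without. The log2 fold change of 0.11 ± 0.03 passed with an edgeR adjusted p of 0.0054, and 3.35% of genes were called. It was lost without infarct 2 or infarct 3 and passed in 11 of 18 alternatives. Itga5 (0.16), Vcl (0.23) and Ptk2 (0.32) did not pass. Each was positive in every alternative that gave a value and passed in 1.

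**Figure D5:**
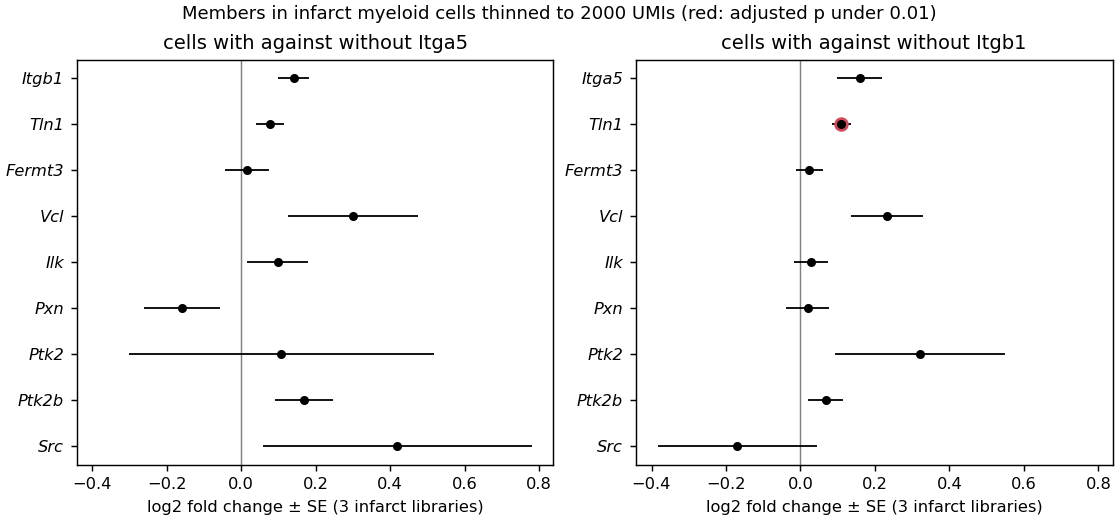
Log2 fold change ± SE of each gene between infarct myeloid cells with and without a UMI of Itga5 (left) or Itgb1 (right), over 3 libraries thinned to 2000 UMIs per cell. Red marks an adjusted p under 0.01, and Tln1 in the Itgb1 panel is the only red point.

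Of the wider lists, 1 of 77 pathway genes was higher with Itga5, the actin cross-linker Flna (204 ± 56.6 against 163 ± 39.8, log2 fold change 0.29), beside 1.35% of all genes. With Itgb1, 5 of 76 were higher, beside 1.57% of all genes (among them Actn1 0.32, Flna 0.32, Fyn 0.29 and Actn4 0.20). No pathway gene was lower in either split. The platelet-derived growth factors Pdgfa (75.6 ± 2.92 against 46.4 ± 1.07) and Pdgfb (125 ± 7.06 against 78.0 ± 8.47) were higher with Itga5, at log2 fold changes of 0.68 and 0.65. The split pooled all myeloid gates, and these values were not adjusted for gate. Before thinning, the Gpnmb gate held 32.3%, 38.4% and 36.0% of the Itga5 UMIs of infarcts 1, 2 and 3, and 22.6%, 31.1% and 28.2% of the cells. The unnamed C1q-high gate held 24.3%, 25.3% and 27.8% of those UMIs, and 34.8%, 38.3% and 38.5% of the cells. With Itga5, 5 of 10 dissociation and stress genes were lower, beside 1.33% of all genes. They were Fos (-0.20), Fosb (-0.17), Jun (-0.16), Junb (-0.22) and Egr1 (-0.27). With Itgb1, Fos, Jun and Junb of that list were lower by 0.07 to 0.11 on the log2 scale, beside 1.78% of all genes. These values too were not adjusted for gate, and the part of tissue digestion in the differences was not tested.

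Across the 39 sums of 13 gates and 3 infarct libraries, the likeness of each gene to the receptors was read as Pearson's r of log2 levels. The sums share libraries and gates and differ in depth, so r is a description with no test. Itga5 had no UMI in 1 of them, the 41 granulocyte-like cells of infarct 2, and the weight of that sum in r was not tested. Itga5 was most like Fermt3 among the 9 other genes (r = 0.52), and the rest lay between -0.31 for Ptk2b and 0.31 for Ptk2, where the median over 5742 genes was 0.07. Itgb1 ran with Ilk (0.35) and against Ptk2b (-0.42). In the 21 sums of C1q-high cells Itgb1 was like Ptk2 (0.87), Tln1 (0.63), Fermt3 (0.62) and Vcl (0.61). It was less like Pxn (0.32), Ilk (0.25) and Itga5 (0.03), and ran against Src (-0.23) and Ptk2b (-0.51). The r of Itga5 with the other genes stayed between -0.10 and 0.25 there. No median over all genes is given for these 21 sums. The genes most like Itga5 over all 39 sums were Sestd1 (0.92), Lap3 (0.92), Slc38a10 (0.91), Thap11 (0.90) and Tars (0.90), and those most like Itgb1 were Atmin (0.87), Lima1 (0.85), Nrip1 (0.81), Ssh1 (0.81) and Plekhb2 (0.81).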

How the data were processed

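The 4 libraries were 10x Genomics 3′ (v3.1) single-cell RNA-seq, 1 of baseline and 3 of infarct hearts. The authors deposited raw UMI counts per gene and cell, made with Cell Ranger on mm10 (version 3.1.0 per the file headers, 3.0.1 per the labels). The filter on cells asked for 500 to 40000 UMIs and more than 200 genes, in 4 libraries of 71093963 to 97944428 UMIs. Gates were set by marker genes, with C1q-high meaning at least 10 C1q UMIs per 10000. Doublets were left in, and the 8.1% to 8.63% of cells with the highest scores were removed as an alternative, since the automatic threshold of the caller marked 0 to 0.0099% of infarct cells. Counts were summed per library and gate and compared with the other myeloid cells of the same heart in edgeR 4.0.16 (R 4.3.3), with TMM scaling, a filter on low counts and the library as a block. The numbers pair the sums because both come from 1 heart. Benjamini-Hochberg values were taken over all genes tested, and the threshold was 0.01. DESeq2 1.42.0 was an alternative. The edgeR script was tested on simulated data. Infarct and baseline were compared by values only, with 1 baseline library. Intervals and the floor of 3 counts cover counting error only and used scipy 1.17.1. The text names all 10 genes in every comparison and, of the wider lists, genes past the threshold among the 5 highest and 5 lowest per comparison, with paralogues always. A few list members past the fold between infarct and baseline, and the osteoclast markers, were named after their values were seen. The genes, lists and gates were chosen with earlier results of these data known. Type 1 dendritic-like cells were not compared, since 1 library held 13. Protein sequences were not used here. A few genes of the wider lists are not reported here.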

Additional observations from a re-analysis of the deposited data

Results flagged for a closer look

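Between infarct and baseline, Ptk2b and Ilk moved to opposite sides in different gates. Every infarct library was above baseline for Ptk2b in interferon-response macrophage-like cells, at a log2 ratio of 0.0519, and every one was below in 6 gates, among them transitional cells at -0.73. For Ilk, every infarct library was above baseline in 3 gates, among them non-classical monocyte-like cells at 0.13, and every one was below in 4, among them cycling macrophage-like cells at -0.24. Of these, the transitional Ptk2b values lay outside the 95% Poisson interval of the baseline in every infarct library (67.0 on average against 111, interval 93.2 to 131). The Ptk2b mean in interferon-response cells (81.1 against 78.3, interval 64.9 to 93.5) and the Ilk mean in non-classical monocyte-like cells (66.8 against 61.0, interval 55.2 to 67.2) lay inside it, and for Ilk in cycling cells (109 against 129, interval 113 to 147) not every infarct library lay outside. With 1 baseline library, neither difference between gates was tested. Groups of 3 libraries are too small for the check on single outlying samples.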

How the results depend on the processing

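Calls of the 10 genes across gates numbered 48, and 20 without the replicate block, 24 when cells were thinned before gating (43 before thinning in the same 12 gates, since the migratory dendritic-like gate could not be tested), and 31 to 42 without any 1 infarct library. DESeq2's size factors ended 3 calls, its Wald test 12, no filter on low counts 2, removal of doublets 4, other C1q thresholds 2 and 1, 1 more marker 2, and C1q-high cells alone 2 of 20. The cause was not tested. For the Itga5 split, 0 genes were called, and 2 after thinning to 4000 UMIs, 1 in draw 2 and 1 in draw 3 of the cells' UMIs, and 0 to 1 without any 1 library. For the Itgb1 split, 1 was called, and 0 with the Wald test, 0 without the replicate block, 0 after thinning to 1000, 3 after thinning to 4000, 0 in draw 3, 2 in draw 5, 0 in Gpnmb macrophage-like cells alone, and 0 to 1 without any 1 library. Over all genes, the Itga5 split gave 310 calls, and 109 with the Wald test, 0 without the block (657 at an unadjusted p under 0.05), 173 at 1000 UMIs, 771 at 4000, 82 in the Gpnmb gate alone and 129 without infarct 1. The Itgb1 split gave 382, and 114, 0 (236), 152 and 37 in the same order without the 4000 setting, 175 with the gate as a further block, and 254 and 183 without infarcts 1 and 3. Between infarct and baseline, 3 genes were past 1.5-fold and 0 past 2-fold in every library. Thinning moved the Ptk2 share at baseline to 11.5%, the Tln1 share in the infarcts to 99.5% (99.49%), and the Fermt3 share to 99.2% in the infarcts and 96.9% at baseline. Depth limits Ptk2 and Src most, which had 3 or fewer UMIs in several gates.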
